A study of Mus musculus with 33 samples.

Results

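A set of 10 transcription factors that act in early lymphoid development was followed across sorted stem and progenitor cells of old mice. They are Ikzf1, Ikzf3, Tcf3, Bcl11a, Foxo1, Satb1, Id2, Notch1, Tcf7 and Lef1, taken as the gene symbols of the count tables that equal these names, and all 10 were found among the 55376 symbols. Stem cells of the blood (HSCs), common lymphoid progenitors (CLPs) and progenitors of granulocytes and monocytes (GMPs) came from the bone marrow of male C57BL/6 mice aged 24 to 29 months. The O-WT mice were untreated and the O-NR mice had nicotinamide riboside (NR), a precursor of NAD+, in their drinking water for 4 to 6 weeks. Cohort 2 holds 4 O-WT and 4 O-NR libraries of each cell type. Cohort 1 holds HSCs alone, in 2 O-WT libraries, 4 O-NR libraries and 3 libraries of mice from which NR was withdrawn for 2 months (O-NR-RC). HSCs were sorted as Lin- cKit+ Sca1+ cells that lacked CD34 and Flk2 and carried CD150, and CLPs as Lin- cells with IL-7Rα and Flk2. One label field calls the GMPs common myeloid progenitors, and the name in the titles and the paper is used. All mice were old, so each comparison is within old age. The labels do not say which libraries share a mouse, so p-values measure the spread between libraries. The study asked whether NR changes the transcription of aged stem and progenitor cells.

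HSCs give rise to lymphoid cells through steps in which a network of DNA-binding proteins opens and maintains B- and T-cell genes. Ikaros (Ikzf1) and Aiolos (Ikzf3) are zinc-finger proteins of one family. E2A (Tcf3) is an E protein that starts B-cell gene expression and is held in check by Id2, a helix-loop-helix protein without a DNA-binding region. Bcl11a and Foxo1 are needed for early B-cell development, and Foxo1 activates the receptor for interleukin 7 and the recombinase genes. Satb1 is a chromatin organizer that promotes lymphoid fate in early progenitors. Notch1 is the receptor that directs progenitors to the T-cell lineage, and Tcf7 (TCF-1) and Lef1 are related HMG-box proteins of T- and B-cell progenitors.

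Counted reads per library ranged from 4792380 to 18213674 in cohort 2 and from 8897256 to 23816042 in cohort 1. CLPs carried the transcripts of their gate, with Il7r at 252 ± 55.7 CPM ( counts scaled to equal library size, SD, n = 8) against 3.92 ± 1.26 in HSCs and 2.79 ± 1.13 in GMPs. Mpo, which marks GMPs, was at 17847 ± 1427 CPM there, 313 ± 85.4 in CLPs and 3.45 ± 0.981 in HSCs, and Slamf1, the CD150 gene, was at 72.4 ± 16.6 CPM in HSCs. B-cell transcripts were present in CLPs, with Cd79a at 77.5 ± 24 and Pax5 at 214 ± 78.4 CPM, while Cd3e of T cells was at 3.88 ± 1.10 CPM. The 9 B-cell and plasma cell markers summed to 478 to 1209 CPM in CLPs, 33.9 to 483 in HSCs and 58.2 to 148 in GMPs, none at 0 in all libraries of a group, and the 12 T- and NK-cell markers to 89.6 to 144, 29.9 to 39.8 and 105 to 155 CPM. The T- and NK-cell sum in GMPs came mostly from Nkg7, at 108 ± 18.1 CPM there, with Lck next at 4.76 ± 0.989. In CLPs Lck was at 53.3 ± 15.3 CPM and Nkg7 at 19.2 ± 6.69. The 6 neutrophil markers summed to 41.2 to 183 CPM in O-WT CLPs and 13.8 to 142 in O-NR CLPs. Their sums in cohort 2 were 11.6 to 12.8 CPM in O-WT HSCs and 9.88 to 14.7 in O-NR HSCs. O-WT GMPs had 21.7 to 51.5 CPM of them and O-NR GMPs 18.1 to 40.4. The part of these markers in the values that follow was not tested. Fewer cells of a type and less RNA per cell cannot be told apart in such bulk libraries. Reads on 1736 olfactory and vomeronasal receptor genes, which blood cells are not known to use, were taken as a measure of reads on genes that are not in use. They summed to 832 to 8004 CPM in cohort 2 and to 4281 to 14712 CPM in cohort 1. The O-WT CLP library of replicate 3 was the shallowest and had the highest such level in cohort 2.

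For the factors with the widest differences, the DNA that precedes the transcription start is shown, in the reading direction of the gene, as the RefSeq table gives it for GRCm38.p6. Satb1 and Lef1 were higher in CLPs than in HSCs, and Foxo1 was lower in GMPs. Each run holds the 250 bases before the start, at chr17:51833291-51833540, minus strand, chr3:131110047-131110296, plus strand, and chr3:52268087-52268336, plus strand.
Satb1: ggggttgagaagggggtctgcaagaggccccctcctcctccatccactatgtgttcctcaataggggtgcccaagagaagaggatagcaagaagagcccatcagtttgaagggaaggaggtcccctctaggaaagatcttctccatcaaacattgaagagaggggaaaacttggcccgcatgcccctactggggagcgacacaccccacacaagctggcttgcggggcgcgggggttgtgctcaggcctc
Lef1: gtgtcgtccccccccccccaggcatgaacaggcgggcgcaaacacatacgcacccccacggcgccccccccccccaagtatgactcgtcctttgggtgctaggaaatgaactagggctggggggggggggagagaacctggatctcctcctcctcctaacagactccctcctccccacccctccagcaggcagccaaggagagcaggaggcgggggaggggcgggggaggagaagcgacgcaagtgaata
Foxo1: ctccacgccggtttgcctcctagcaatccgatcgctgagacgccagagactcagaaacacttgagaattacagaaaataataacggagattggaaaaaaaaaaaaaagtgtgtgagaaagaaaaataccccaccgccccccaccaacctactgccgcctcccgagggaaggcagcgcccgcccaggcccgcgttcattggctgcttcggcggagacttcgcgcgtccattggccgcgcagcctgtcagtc
No letters are in capitals because none of the motifs searched was found in them. A window was listed for 9 of the 10 genes, and 4 motifs were searched on both strands. TGGGAA, the core shared by Ikaros and the Notch partner RBPJ, was found in 1 of 9 windows, that of Bcl11a, and in 21.6% of 32851 windows of all genes. CTTTGA, the core of TCF-1 and Lef1, was in 0 of 9 and in 13.8% of all windows. The forkhead core GTAAACA (3.17% of all windows) and the E-box CAGGTG (17.2%) were likewise in 0 of 9. The Satb1 window held 5 CpG dinucleotides, near the median of 6 over all windows, and those of Lef1 and Foxo1 held 11 and 20.

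Levels differed widely between the factors. Per kilobase of exon, the mean O-WT level in CLPs was highest for Ikzf1 (52.7 CPM per kb), followed by Tcf3 (34.1), Notch1 (25.9), Bcl11a (21.4) and Satb1 (19.3). The other factors were below 10 CPM per kb there, with Ikzf3 the lowest at 1.27. HSCs had Bcl11a first, at 24.7 CPM per kb, followed by Tcf3 (19.9) and Ikzf1 (17.5). In GMPs, Ikzf1 (36.7) and Tcf3 (34.4) led and Lef1 (0.345) was last. Set against the olfactory receptor genes on the same scale, Lef1 in O-WT HSCs had a median ratio of 1 and Satb1 of 1.44. The Lef1 ratio in O-WT GMPs was 1.06. Those levels were thus close to the background of reads on genes that blood cells do not use. Tcf7 in O-WT HSCs had a median ratio of 2.40, with a range of 1.20 to 3.17. Ikzf3 had median ratios of 2.07, 2.15 and 4.99 in HSCs, CLPs and GMPs, whereas Ikzf1 in CLPs stood at 107 and Satb1 in CLPs at 39.8.

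**Figure D1:**
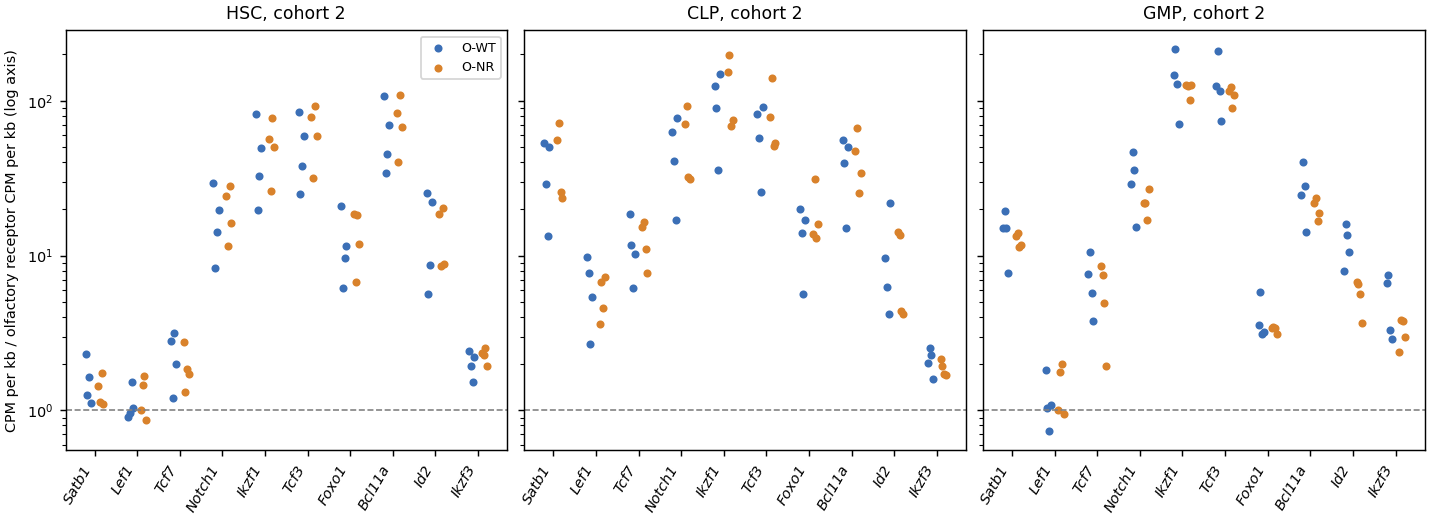
Level of each factor per kilobase of exon, divided by that of the olfactory and vomeronasal receptor genes in the same library (log axis), in the 24 libraries of cohort 2, with O-WT in blue, O-NR in orange and a dashed line at 1. Lef1 and Satb1 in HSCs and Lef1 in GMPs lie near the line. Tcf7 in HSCs and Ikzf3 in HSCs and CLPs lie a little above it, and most other factors lie well above it.

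CLPs were compared with HSCs first, because the move from one to the other is the lymphoid step. In O-WT mice, 7 of the 10 factors were higher in CLPs and 0 were lower at an adjusted p below 0.05 (quasi-likelihood test of edgeR, Benjamini-Hochberg adjusted), where 10.4% of 20044 genes were higher and 19.9% lower. The 7 were Satb1, Lef1, Tcf7, Notch1, Ikzf1, Tcf3 and Foxo1. Of these, Tcf7 passed the filter of 3 CPM only through the cell types where it was higher than in HSCs. For 5 of them the 4 CLP libraries lay above the 4 HSC libraries without overlap, as did 9.25% of all genes. The median log2 difference of the 10 factors was 1.20, against 0.08 over all genes tested. Without CLP replicate 3, the library with the highest olfactory receptor level, 7 were called.

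**Figure D2:**
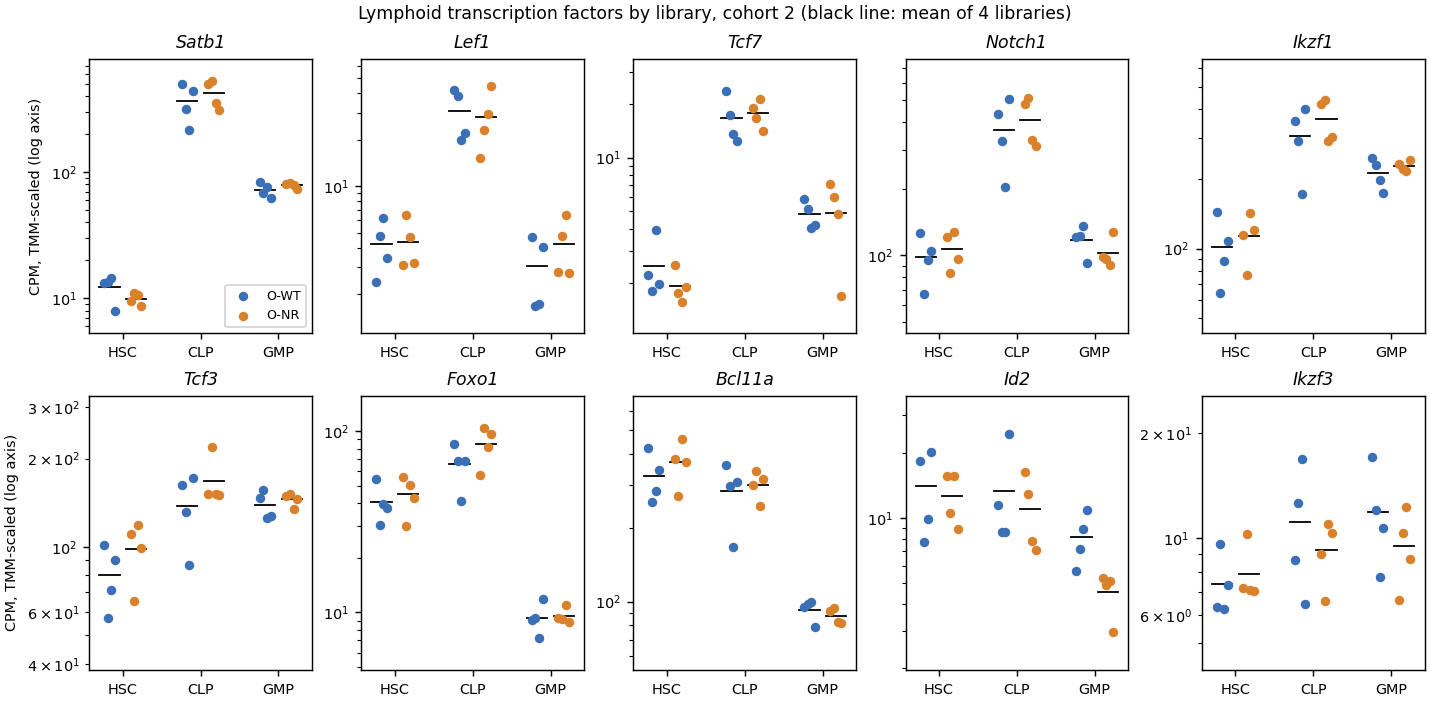
CPM of each factor (log axis, TMM-scaled) in the 24 libraries of cohort 2, by cell type, with O-WT in blue and O-NR in orange. Black lines are means of 4 libraries, and Satb1, Lef1, Tcf7, Notch1 and Ikzf1 rise from HSCs to CLPs in both treatments.

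Satb1 (GRCm38 chr17:51736187-51833290, minus strand) had the largest difference of the 10. Its O-WT levels were 13.3, 13.5, 14.6 and 7.93 CPM in the HSC libraries and 499, 315, 215 and 443 CPM in the CLP libraries, so every CLP library exceeded every HSC library by more than 10 times. The means were 12.3 ± 2.99 and 368 ± 128 CPM (SD, n = 4), a log2 difference of 4.88 ± 0.25 (SE, edgeR adjusted p = 1.43e-14) or 29.5-fold. Satb1 in HSCs was close to the olfactory receptor level. GMPs held an intermediate level, at 83.0, 68.1, 77.1 and 62.5 CPM in O-WT, 5.81-fold that of HSCs (log2 difference 2.54 ± 0.23, edgeR adjusted p = 3.71e-10). CLPs stood 5.08-fold above GMPs (log2 difference 2.35 ± 0.22), and the 3 cell types did not overlap. In O-NR mice the levels were 9.51, 11, 10.6 and 8.69 CPM in HSCs, 504, 526, 356 and 314 in CLPs and 80.5, 82.1, 79.9 and 73.6 in GMPs, in the same order and again without overlap.

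Both HMG-box factors, Lef1 (chr3:131110471-131224356, plus strand) and Tcf7 (chr11:52252371-52283014, minus strand), were higher in CLPs. The 4 O-WT CLP libraries held 42.0, 38.6, 19.8 and 22 CPM of Lef1 and the HSC libraries 2.39, 4.78, 6.26 and 3.44 CPM. Its log2 difference was 2.84 ± 0.33 (edgeR adjusted p = 7.23e-08), or 7.17-fold. GMPs, at 4.68, 1.67, 1.72 and 4.04 CPM, overlapped HSCs, and the log2 difference of -0.52 ± 0.35 between them was not called (95% interval -1.24 to 0.19, edgeR adjusted p = 0.219). The lowest ratio to the olfactory receptor level was 2.69 in O-WT CLPs, and the highest was 1.52 in O-WT HSCs and 1.83 in O-WT GMPs. The strand setting of the counting is not stated, so the Lef1 counts may include reads of an antisense gene, Gm43352, which covers 13.75% of its exon bases. Genes on the opposite strand also cover 7.78% of the exon bases of Foxo1 (Gm20402), 2.4% of those of Bcl11a (4930538E20Rik), and 7.5% (0610009E02Rik) and 2.91% (Gm13568) of those of Notch1.

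Tcf7 had the fewest reads of the factors in HSCs, with 2.21, 1.79, 3.91 and 1.96 CPM in O-WT HSCs, from 21 to 45 reads each. CLPs held 23.8, 17.3, 13.6 and 12.4 CPM and GMPs 5.83, 5.15, 4.02 and 4.22 CPM. The 3 cell types followed each other without overlap in O-WT mice, HSCs lowest and CLPs highest. CLPs exceeded HSCs by 2.77 ± 0.30 on the log2 scale (edgeR adjusted p = 2.34e-08) and GMPs exceeded HSCs by 0.94 ± 0.30 (edgeR adjusted p = 0.0122). Tcf7 did not pass the filter of 3 CPM in HSCs of cohort 2 alone. It entered the fits between cell types through its progenitor levels, which limits its calls against HSCs, here and in the counts of factors. In O-NR mice 1 GMP library, at 1.67 CPM from 17 reads, lay among the HSC libraries. In that fit Tcf7 passed the filter only with its CLP levels, which also limits its O-NR call of CLPs over GMPs.

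Notch1 (chr2:26457903-26516663, minus strand) was higher in CLPs than in either other cell type. O-WT levels were 436, 329, 204 and 508 CPM in CLPs, 126, 66.8, 95.4 and 105 in HSCs and 121, 122, 136 and 92.2 in GMPs, so the CLP libraries lay above all others and the other two cell types overlapped. CLPs were 3.78-fold above HSCs (log2 difference 1.92 ± 0.21, edgeR adjusted p = 2.53e-08) and 3.14-fold above GMPs (log2 difference 1.65 ± 0.21, edgeR adjusted p = 4.24e-07). GMPs and HSCs differed by 0.27 ± 0.21 (95% interval -0.15 to 0.69, edgeR adjusted p = 0.286), which was not called. The olfactory receptor level differs between CLPs and GMPs, and with it as a covariate, a setting added after the data were seen, the CLP to GMP difference of Notch1 was 2.30.

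Ikzf1 (chr11:11685003-11772926, plus strand) was higher in both progenitors than in HSCs. Its O-WT levels were 143, 64.6, 88.6 and 108 CPM in HSCs, 247, 229.6, 197 and 174 in GMPs and 354, 293, 172 and 399 in CLPs. Every library of either progenitor lay above every HSC library, while CLPs and GMPs overlapped. The log2 difference from HSCs was 1.61 ± 0.21 in CLPs (edgeR adjusted p = 6.43e-07) and 1.08 ± 0.21 in GMPs (edgeR adjusted p = 0.000109). CLPs against GMPs gave 0.53 ± 0.21 (edgeR adjusted p = 0.0317). This call was lost under 5 of 7 other settings, at 0.22 without a CPM filter and 0.39 with DESeq2's size factors, and it was lost without any 1 library other than CLP replicate 3, at 0.33 to 0.59. With the olfactory covariate it was 1.20.

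Tcf3 (chr10:80409514-80433647, minus strand) was higher in both progenitors than in HSCs, and no difference was called between the progenitors. The means were 138 ± 38.2 CPM in O-WT CLPs, 139 ± 15 in GMPs and 80.3 ± 19.8 in HSCs (SD, n = 4). CLPs exceeded HSCs by 0.80 ± 0.18 (edgeR adjusted p = 0.000903) and GMPs exceeded them by 0.80 ± 0.18 (edgeR adjusted p = 0.000556). Between CLPs and GMPs the difference was 0.00 ± 0.18 (95% interval -0.37 to 0.36), and with the olfactory covariate it was 0.49 (edgeR adjusted p = 0.00968) and called. The CLP libraries, at 163, 131, 86.8 and 171 CPM, overlapped the HSC libraries, at 102, 57.2, 71.6 and 90.5 CPM. Replicate 3, the CLP library with the highest olfactory receptor level, was the low one.

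Foxo1 (chr3:52268336-52353221, plus strand) was lowest in GMPs. O-WT levels were 85.1, 68.3, 41.0 and 68.3 CPM in CLPs, 54.6, 30.4, 39.6 and 37.6 in HSCs and 9.06, 9.26, 7.22 and 11.9 in GMPs. GMPs were below every HSC library, at 4.32-fold lower (log2 difference -2.11 ± 0.19, edgeR adjusted p = 4.04e-10), and CLPs were 7.10-fold above GMPs (log2 difference 2.83 ± 0.19). Between CLPs and HSCs, which overlapped in O-WT mice, the difference was 0.72 ± 0.18 (edgeR adjusted p = 0.00235). The CLP to HSC calls of Foxo1 and Tcf3 in O-WT mice were lost when genes down to 1 CPM, or all genes with a count, were kept. Their log2 differences then were 0.53 and 0.63 for Foxo1 and 0.62 and 0.72 for Tcf3.

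Bcl11a (chr11:24078056-24174123, plus strand) was lower in GMPs than in HSCs or CLPs. HSC libraries of O-WT mice held 422, 254, 282 and 344 CPM, CLP libraries 359.7, 297, 167 and 307 CPM and GMP libraries 94.6, 97.6, 99.2 and 79 CPM, so the GMP libraries lay below all others. GMPs were 3.51-fold below HSCs (log2 difference -1.81 ± 0.20, edgeR adjusted p = 1.27e-08) and 3.08-fold below CLPs. CLPs differed from HSCs by -0.19 ± 0.19 (95% interval -0.58 to 0.20, edgeR adjusted p = 0.474), which was not called. In O-NR mice it was -0.22 ± 0.13, and -0.32 and called without HSC O-NR replicate 2.

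Id2 (chr12:25093799-25097140, minus strand) and Ikzf3 (chr11:98464902-98546031, minus strand) were not called between CLPs and HSCs. Id2 stood at 18.5, 7.77, 9.92 and 20.2 CPM in O-WT HSCs, 11.5, 8.65, 8.60 and 24.7 in CLPs and 5.68, 7.17, 8.86 and 10.9 in GMPs, with overlap among all 3. GMPs were lower than HSCs, with a log2 difference of -0.78 ± 0.29 (edgeR adjusted p = 0.0318) that was no longer called without HSC replicate 1 or 4 or GMP replicate 1, 2 or 3, at -0.77 to -0.52, with DESeq2 (-0.62) or without a CPM filter (-0.59). CLPs were higher than GMPs by 0.73 ± 0.29 (edgeR adjusted p = 0.0349), also not called without CLP replicate 4 (0.23) or GMP replicate 1, 2 or 3 (0.51 to 0.69), with DESeq2 (0.62), with a filter of 1 CPM (0.55) or without one (0.45). In O-NR mice the GMP to HSC difference was -1.42 ± 0.27 (edgeR adjusted p = 8.58e-05), and the groups did not overlap. Ikzf3 ranged from 6.26 to 17 CPM over the O-WT libraries, and no cell type differed from another in the main test. Its GMP to HSC difference of 0.66 ± 0.30 (edgeR adjusted p = 0.0762) was called under 6 of 7 other settings and without HSC replicate 2 or GMP replicate 3 or 4, at 0.78 to 0.89. Its CLP to HSC difference of 0.63 ± 0.31 was called without HSC replicate 2 (0.82) or CLP replicate 4 (0.81).

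GMPs differed from HSCs in both directions. In O-WT mice, 4 factors were higher in GMPs (Satb1, Ikzf1, Tcf7 and Tcf3) and 3 were lower (Foxo1, Bcl11a and Id2), where 22.6% of all genes were higher and 21.5% lower. All 4 that were higher, and 2 of the 3 that were lower, did not overlap (all genes 20% and 19.4%). CLPs against GMPs gave 8 higher and 0 lower, all but Tcf3 and Ikzf3, where 32.2% of genes were higher and 28.6% lower, and 6 of the 8 did not overlap (all genes 20.5%). These comparisons share their libraries, so their counts are not independent. The median log2 difference of the 10 factors was 0.46 between GMPs and HSCs (all genes -0.31) and 1.64 between CLPs and GMPs (all genes 0.28). The median of all genes moved by 0.18 and -0.14 on the log2 scale with DESeq2's size factors in these comparisons. No called factor changed direction with that scaling.

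**Figure D3:**
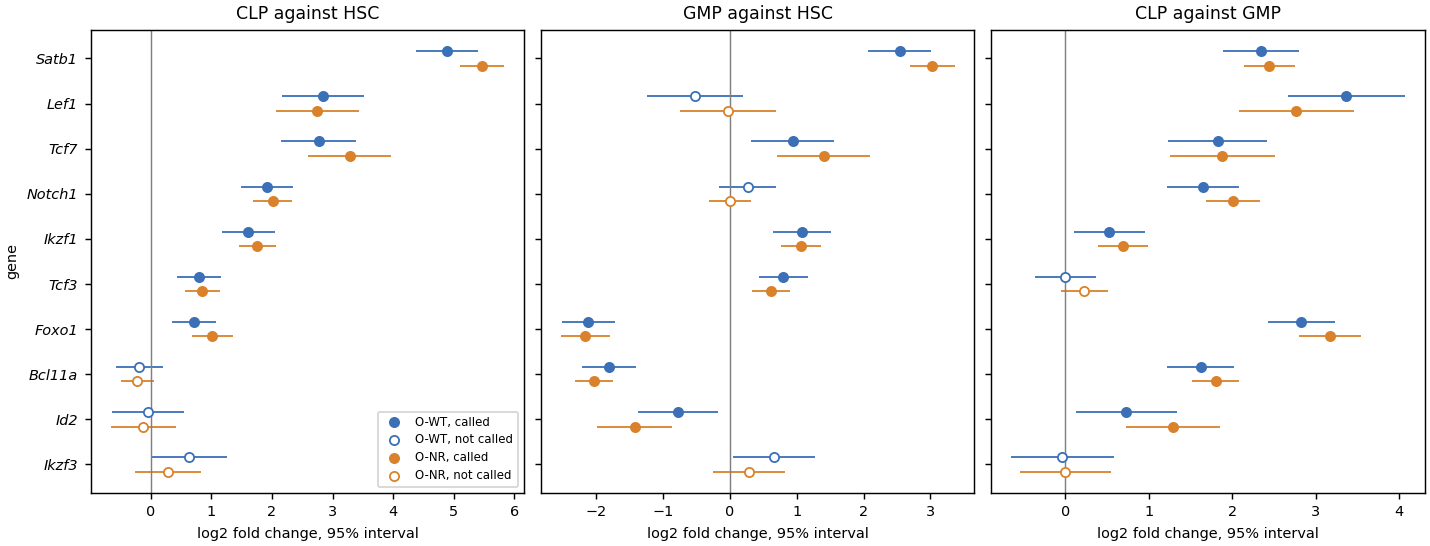
Log2 fold change of each factor with its 95% interval (horizontal axis) between cell types in O-WT (blue) and O-NR (orange) mice, from edgeR fits of 12 libraries per treatment, where filled points passed an adjusted p below 0.05. The blue and orange intervals of each factor overlap in all 3 panels, and Satb1 lies farthest from 0 between CLPs and HSCs.

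The O-NR libraries, which carry other sample tags than the O-WT libraries, gave the cell type differences a second time. CLPs had 7 of 10 factors higher than HSCs and 0 lower (all genes 18.3% and 22.6%), namely Satb1, Lef1, Tcf7, Notch1, Ikzf1, Tcf3 and Foxo1. All 7 were without overlap, as were 11.7% of genes in this direction. Satb1 led again with a log2 difference of 5.47 ± 0.18 (edgeR adjusted p = 8.59e-18), followed by Tcf7 at 3.28 ± 0.34 and Lef1 at 2.74 ± 0.33. GMPs had 4 factors higher and 3 lower than HSCs (all genes 24.4% and 22%), of which 3 and 3 did not overlap (all genes 21.5% and 22.3%), and CLPs had 8 higher and 0 lower than GMPs (all genes 23.9% and 26.1%), with no overlap for any of the 8 (all genes 17.6%). Each of these counts had the factors named for O-WT mice. Tcf7 passed the filter of 3 CPM in O-NR mice only with its CLP levels, which limits its calls against HSCs and against GMPs.

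Relatives of the factors were counted beside them. Of 16 listed relatives, 14 were tested between CLPs and HSCs in O-WT mice, 1 was higher and 5 were lower (median log2 difference -0.24), where 10.4% of all genes were higher and 19.9% lower (median 0.08). In O-NR mice 3 were higher and 5 lower (median 0.27), where 18.3% of all genes were higher and 22.6% lower (median 0.08). Helios (Ikzf2) was lower in CLPs, where Ikaros was higher, at 15.8 ± 5.67 against 57.5 ± 17.4 CPM, log2 difference -1.82. Eos (Ikzf4) was also lower, at 5.21 ± 2.07 against 20.5 ± 6.29 CPM, log2 difference -1.93. Foxo3, a sister of Foxo1 that maintains stem cell quiescence, was lower at 79.1 ± 25.4 against 179 ± 51.6 CPM, log2 difference -1.16, as were Foxo4 (log2 difference -1.150) and Notch2 (-0.62). The E protein Tcf4 was higher, by 0.49.

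Other regulators and partners of the network were counted in the same fit. Of 20 other lymphoid regulators, all tested, 11 were higher and 5 lower in O-WT CLPs than in HSCs (median log2 difference 1.05), against 10.4% and 19.9% of all genes (median 0.08). Pax5, the B-cell identity factor, stood at 196 ± 82.8 against 6.05 ± 1.62 CPM, log2 difference 5.0, and Ebf1, which specifies B cells, at 198 ± 67.8 against 6.68 ± 2.18 CPM, log2 difference 4.86. Gata3, needed in early T cells and also expressed in HSCs, was lower at 8.82 ± 2.87 against 33.4 ± 10.02 CPM, log2 difference -1.88. Of 17 partners and targets, 16 were tested, 10 were higher and 0 lower (median 3.53), against the same shares and median of all genes. In O-NR mice 12 regulators were higher and 4 lower of 19 tested (median 0.99), and 10 partners and targets were higher and 0 lower of 16 (median 3.41). The partners and targets include those that Foxo1 and E2A are known to activate, with Il7r at 242 ± 72.5 against 4.13 ± 1.18 CPM, log2 difference 5.86 and Rag1 at 463 ± 161 against 5.26 ± 1.41 CPM, log2 difference 6.44. Dntt, the terminal transferase of early lymphocytes, had the largest difference named, at 1407 ± 434 against 2.93 ± 0.986 CPM, log2 difference 8.88. Il7r and Flt3 encode proteins of the CLP gate, so their differences follow the sort. Rag1 and Dntt were, like Il7r and Flt3, also listed as markers of CLPs. In HSCs of cohort 2 alone, 13 of the 17 partners and targets and 18 of the 20 regulators passed the filter of 3 CPM. The others tested entered the fits through other cell types, which limits their calls against HSCs. The excess of partners and targets over the shares of all genes is thus partly built into the list and the filter.

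Few differences between O-NR and O-WT were found for the 10 factors. O-NR and O-WT were compared within each cell type of cohort 2, with a gene counted at an unadjusted p below 0.01. That is the p threshold of the study, whose methods also list a fold-change cutoff that was not applied here. In HSCs 9 of the 10 passed the filter of 3 CPM and 0 were called (all genes 0.777%), and Tcf7 was not tested. In CLPs 0 of 10 were called (all genes 0.412%). At an unadjusted p below 0.05 the edgeR count was also 0 in both, and DESeq2 gave 0 at 0.01 in both. In GMPs 1 of 10 was called, Id2 (all genes 0.986%, 0.749% in the lower direction). By edgeR, 0 genes of the whole table passed an adjusted p of 0.05 in any of the 3 cell types. At an unadjusted p below 0.05 the shares of all genes were 4.06%, 3.21% and 4.83%. Notch1 in GMPs was at -0.20 ± 0.11, and it was called without O-NR replicate 4, at -0.31.

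**Figure D4:**
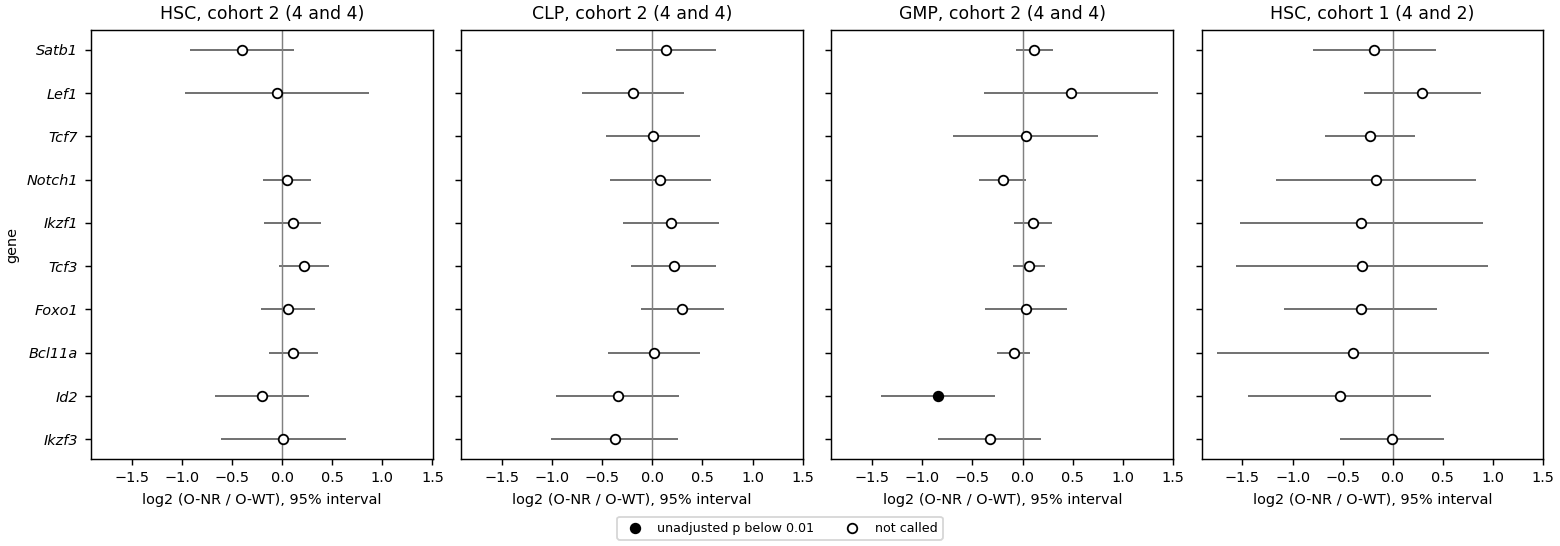
Log2 ratio of O-NR to O-WT for each factor with its 95% interval (horizontal axis), in HSCs, CLPs and GMPs of cohort 2 (4 libraries against 4) and in HSCs of cohort 1 (4 against 2). Id2 in GMPs is the filled point, at -0.84, the intervals of the other factors include 0, and Tcf7 in HSCs of cohort 2 was not tested.

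Id2 was lower in O-NR GMPs. The O-WT libraries held 5.68, 7.17, 8.86 and 10.9 CPM and the O-NR libraries 5.26, 4.87, 5.11 and 2.95 CPM, from 30 to 121 reads each, and the groups did not overlap, as for 1.07% of genes in this direction. The means were 8.15 ± 2.23 and 4.55 ± 1.07 CPM (SD, n = 4), a log2 difference of -0.84 ± 0.27 (edgeR unadjusted p = 0.00657, adjusted p = 0.905). The difference failed the adjustment over all genes, and its call at 0.01 was lost without O-WT replicate 3 or 4, without O-NR replicate 2 or 4, at -0.87 to -0.64, and in 1 fit over all 24 libraries (-0.83). Id2 was not called in HSCs, at -0.20 ± 0.22 (95% interval -0.67 to 0.27), or in CLPs, at -0.35 ± 0.30 (-0.96 to 0.27). The effect in GMPs differed from that in HSCs by -0.68 ± 0.43 in an interaction test (edgeR adjusted p = 1), and the effect in CLPs differed from it by 0.55 ± 0.43 (edgeR adjusted p = 0.992). Neither was called at 0.01 or at an unadjusted p below 0.05.

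The intervals show what size of change these libraries leave possible. In CLPs, Satb1 averaged 368 ± 128 CPM in O-WT and 425 ± 106 in O-NR (log2 difference 0.14 ± 0.24, 95% interval -0.36 to 0.64). Ikzf1 averaged 304 ± 98.4 and 363 ± 76.3 CPM (0.19 ± 0.24, -0.29 to 0.67). Foxo1 had the largest difference in the direction of O-NR among the CLP values, 85.1, 68.3, 41.0 and 68.3 against 56.9, 104, 82.1 and 96.4 CPM, with overlapping groups (0.30 ± 0.20, -0.12 to 0.72). In HSCs, the intervals of Ikzf1 (-0.18 to 0.39), Notch1 (-0.19 to 0.29), Bcl11a (-0.14 to 0.35) and Foxo1 (-0.21 to 0.32) lay within 0.5 of 0 on either side. Satb1 in HSCs had the widest difference in this cell type, at -0.40 ± 0.24 (-0.91 to 0.11), with 13.3, 13.5, 14.6 and 7.93 CPM in O-WT and 9.51, 11, 10.6 and 8.69 in O-NR, near the olfactory receptor level. Lef1 in HSCs could not be bounded closely (-0.97 to 0.86). In GMPs, Ikzf1, Tcf3, Bcl11a and Satb1 had intervals within 0.5 of 0, from -0.25 for the low end of Bcl11a to 0.30 for the high end of Satb1.

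Between cell types the NR effect differed for 0 of the 10 factors in each of 3 interaction tests at an unadjusted p below 0.01 by edgeR, where 0.403%, 0.146% and 0.403% of genes were called. The edgeR count at 0.05 was also 0 (all genes 2.3%, 1.41% and 2.9%), and DESeq2 called 0 at 0.01. The lists gave few calls too. Among relatives and among partners and targets 0 were called in any cell type, and 1 of 18 tested regulators was higher in O-NR HSCs. It was Runx3, a T- and NK-cell factor named after its value was seen, at 39.8 ± 9.73 against 29.3 ± 4.54 CPM (log2 difference 0.35 ± 0.12, edgeR unadjusted p = 0.00888, adjusted p = 0.995). In cohort 2 the median O-NR to O-WT difference of the 10 factors was 0.05 for HSCs, 0.05 for CLPs and 0.03 for GMPs. Over all genes it was -0.01 in HSCs and within 0.01 of 0 in the others.

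Cohort 1 asked whether HSC transcription returns after NR is withdrawn. Of the 10 factors 0 were called in the 3 comparisons among its 3 groups, which share libraries, where 0.048% (O-NR against O-WT), 0.036% (O-NR-RC against O-NR) and 0.078% (O-NR-RC against O-WT) of 33350 genes were called. At an unadjusted p below 0.05 the edgeR count was 0 in each (all genes 0.546%, 0.291% and 0.795%), and DESeq2 called 0 at 0.01. The median log2 difference of the 10 factors was -0.27 for O-NR against O-WT (all genes -0.01), with 1 factor above 0. For O-NR-RC against O-WT it was -0.21 (all genes 0.01), with 1 above 0. For O-NR-RC against O-NR it was 0.09 (all genes 0.02), with 6 above 0. Ikzf3 alone did not overlap in a comparison, at 24.1 and 25.2 CPM in O-WT and 18.5, 24 and 21.8 in O-NR-RC, where 2.67% of genes were apart in this direction. Levels spread widely within groups. Ikzf1 ran at 129 and 89.5 CPM in O-WT, 59.0, 58.9, 102 and 131 in O-NR and 179.6, 47.0 and 55.1 in O-NR-RC. The O-NR-RC to O-NR difference of Ikzf1 was 0.10 ± 0.50 (95% interval -0.98 to 1.18), so the libraries leave changes of about 1 log2 unit in either direction possible.

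The spread in cohort 1 moved with the olfactory receptor level. In 4 libraries, 2 O-NR and 2 O-NR-RC, that level was 1.87 to 1.97 CPM per kb, and in the other 5 it was 1.118 to 1.58. Ikzf1 was 47.0 to 59.0 CPM in the 4 and 89.5 to 179.6 in the 5. Bcl11a was 122 to 157 CPM in the 4 and 247 to 426 in the 5. Tcf3, Foxo1, Notch1 and Id2 were lower in the 4 libraries in the same way, without overlap. Lef1 was higher in them, at 15.4 to 16.2 against 9.13 to 12.1 CPM, and Satb1, Tcf7 and Ikzf3 overlapped. The ratio of Lef1 to the olfactory receptor level per kb was 0.753 to 1.11 in O-WT, 0.910 to 1.08 in O-NR and 0.896 to 0.969 in O-NR-RC. Lef1 was thus close to that background in each group of cohort 1. The 4 libraries were picked by the olfactory receptor level, not by treatment, so these values are descriptions, and the part of that level in the NR comparisons of cohort 1 was tested only as a covariate, with 0 factors called.

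**Figure D5:**
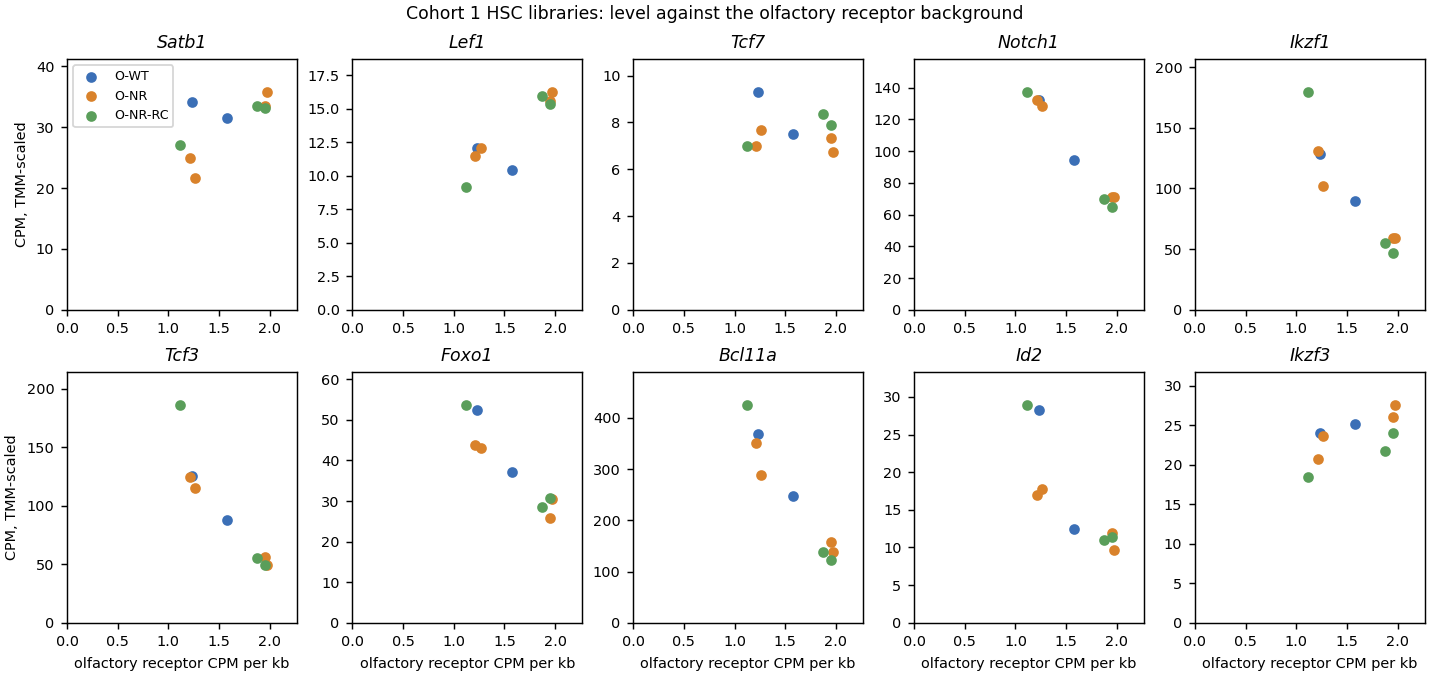
CPM of each factor in the 9 HSC libraries of cohort 1 (vertical axis) against the olfactory receptor level of the library in CPM per kb (horizontal axis), with O-WT in blue, O-NR in orange and O-NR-RC in green. Ikzf1, Tcf3, Bcl11a, Foxo1, Notch1 and Id2 are lower in the 4 libraries at the right. Lef1 is higher in them, and per kb it was close to the olfactory receptor level in each group.

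Both cohorts together, with a cohort term over 6 O-WT and 8 O-NR HSC libraries, gave 0 of 10 called by edgeR and by DESeq2 (all genes 0.103%) and 0 at an unadjusted p below 0.05 by edgeR (all genes 0.923%). The joint NR differences ran from -0.31 for Tcf7 to 0.15 for Lef1, and the difference of Ikzf1 was -0.04 ± 0.17 (95% interval -0.40 to 0.32). Between cohorts the NR effect differed for 0 of 10 (all genes 0.137%), with 0 at 0.05 (all genes 1.86%). Satb1 stood at 34.1 and 31.6 CPM in O-WT HSCs of cohort 1, which is 1.45 and 1.05 times the olfactory receptor level per kb. Tcf7, too low to test in HSCs of cohort 2 alone, was at 8.41 ± 1.27 CPM in O-WT and 7.18 ± 0.412 in O-NR of cohort 1 (log2 difference -0.23 ± 0.21, 95% interval -0.68 to 0.22). Its ratio to the olfactory receptor level per kb in cohort 1 was 1.81 to 2.87 in O-WT and 1.30 to 2.32 in O-NR. Levels of the cohorts were scaled separately and are not compared.

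Within CLPs, 5 pairs of genes were compared over the 8 libraries of cohort 2, by exact two-sided permutation tests on log2 CPM. Ikzf1 and Ikzf3 were related inversely, with Pearson's r = -0.92 (exact p = 0.00104, Benjamini-Hochberg adjusted p = 0.00521) and Spearman's rho = -0.86 (exact p = 0.0107). Without the 2 libraries farthest from the median of Ikzf1, r was -0.81. The adjusted p rose to 0.18 when CPM were taken from library totals alone and to 0.0853 without O-WT replicate 3. In that library Ikzf3 was highest, at 16.8 CPM, and Ikzf1 lowest, at 172 CPM, and the olfactory receptor level was 0.838 CPM per kb. Ikzf1 was highest, at 438 CPM, in O-NR replicate 2, where Ikzf3 was 6.58 CPM and the olfactory receptor level was lowest, at 0.386. The part of that level in the relation was not tested. Each treatment has 4 CLP libraries, too few for a value of its own. Foxo1 with Il7r, its known target, gave r = 0.63 (exact p = 0.0923, adjusted p = 0.231) and rho = 0.48 (exact p = 0.243), and r was -0.25 without the 2 libraries farthest from the median and 0.09 without O-WT replicate 3 alone. Id2 with Tcf3 gave r = 0.43 (exact p = 0.276, adjusted p = 0.461) and rho = 0.69 (exact p = 0.0694). Tcf7 with Lef1 (r = 0.24, exact p = 0.55, rho = 0.29, exact p = 0.501) and Tcf7 with Notch1 (r = 0.24, exact p = 0.566, rho = 0.10, exact p = 0.84) had adjusted p = 0.566 each. Without the 2 farthest libraries r was 0.54 for Id2 with Tcf3, -0.18 for Tcf7 with Lef1 and 0.56 for Tcf7 with Notch1.

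Across the 24 libraries of cohort 2, the genes whose log2 CPM followed each factor most closely among 22573 genes are given as a description, since the points share cell type, depth and background. Bcl11a was followed by Bcl9l (r = 0.988) and Camk2d (r = 0.981), and Foxo1 by Trp53i11 (r = 0.987) and 2900026A02Rik (r = 0.984). Satb1 was nearest to Tedc1 (r = 0.988) and Cd244a (r = 0.983), and Lef1 to Akap12 (r = 0.983). Ikzf1 went with Elf1 (r = 0.978) and Cyth1 (r = 0.977), Notch1 with Il12a (r = 0.978) and Il17ra (r = 0.974), and Tcf3 with Slc38a1 (r = 0.972) and Csrp1 (r = 0.970). Tcf7 had Kcna3 (r = 0.932) and, among the factors themselves, Satb1 (r = 0.927). Id2 (Slc5a3, r = 0.878) and Ikzf3 (Atp8a2, r = 0.793) had the lowest top values. Both had low counts, as did Tcf7 and Lef1, whose top values were 0.932 and 0.983.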

How the data were processed

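The 33 libraries were of total RNA from sorted bone marrow cells, made with a stranded low-input kit. Per the labels and the study's methods, the authors trimmed reads with Trim Galore and cutadapt, aligned them to mm10 with STAR and counted reads per gene with featureCounts on a Gencode annotation, and the deposited values are raw counts. The settings for strand and for reads with several positions are not given in the sources used here.

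Counts were tested with edgeR 4.0.16 in R 4.3.3 (TMM scaling, quasi-likelihood test, Benjamini-Hochberg adjustment over all genes tested), keeping genes above 3 CPM in as many libraries as the smallest group holds. Differences between cell types were called at an adjusted p below 0.05 and NR effects at an unadjusted p below 0.01. Cell types were compared within a treatment, over the 12 libraries of cohort 2 with that treatment. CPM are TMM-scaled within a cohort, and ± after a log2 difference is its standard error. The scripts were tested on simulated counts. DESeq2 1.42.0, its size factors, other filters, replicate blocks, 1 fit over 24 libraries, an olfactory receptor covariate and leaving out each library were the alternatives. Same-numbered libraries of 1 treatment carry 1 sample tag across the 3 cell types (8 tags, 3 libraries each), and the O-WT and O-NR libraries of 1 number carry different tags. Exon lengths, positions and overlaps were taken from Gencode on GRCm38. Pairs of libraries were checked for duplicates within each group, and none was a copy of another. The lowest chi-square per degree of freedom of a pair was 1.93, in O-NR HSCs of cohort 1, where the highest was 68.2.

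The 10 factors are all named. Of each list of relatives, other regulators and partners, up to 6 genes with the smallest p between O-WT CLPs and HSCs were eligible to be named. The factors and lists were chosen with earlier results of these data known. For each factor the genes with the most similar pattern over the 24 libraries of cohort 2 were named, up to 2 each, and 1 of them is not reported here.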

Additional observations from a re-analysis of the deposited data

Results flagged for a closer look

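Of 70 groups of 4 libraries checked, 3 held a library that stood apart from the other 3 by Dixon's criterion, all in cohort 2, and chance flags about 1 group in 20. Tcf3 was 218.2 CPM in CLP O-NR replicate 2 and 150.6 to 151.6 CPM in the other CLP O-NR libraries. The olfactory receptor level of that library was 0.386 CPM per kb, the lowest of the CLP libraries. Ikzf3 was 10.22 CPM in HSC O-NR replicate 2, from 117 reads, against 7.015 to 7.177 CPM in the others, and the olfactory receptor level there was 0.509 CPM per kb, the highest of the HSC O-NR libraries of cohort 2. Id2 was 2.954 CPM in GMP O-NR replicate 4, from 30 reads, against 4.869 to 5.258 CPM. Without that library the O-NR to O-WT difference of Id2 in GMPs was -0.69 on the log2 scale (edgeR unadjusted p = 0.0205).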

How the results depend on the processing

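Over the 10 factors and 17 comparisons, the alternatives left 1102 values on their side of the threshold, 13 became called, 17 lost the call and 1 changed direction and was called. That was Tcf3 between CLPs and GMPs in O-WT mice, at 0.00 in the main test and 0.49 with the olfactory receptor level as covariate. With 1 library left out, 1625 values stayed on their side of the threshold, 7 became called and 20 lost the call. Of all 2785 values 216 changed sign, all but that of Tcf3 without a call in either setting. The count of factors called for NR in GMPs was 1 and became 0 with the replicate block and in 1 fit over the 24 libraries, and ranged from 0 to 1 with 1 library left out. The count for the difference of the NR effect between cohorts was 0 and became 5 with the replicate block (Ikzf1, Tcf3, Bcl11a, Foxo1 and Notch1), where 3813 of all genes (16.3%) were called and cohort 1 gives 2 numbered pairs. The tags pair libraries across cell types, and blocking on them changed no call of a factor between cell types. O-NR and O-WT libraries share only a number (mean correlation of deviations 0.14 for HSCs, 0.02 for CLPs, 0.04 for GMPs).

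With CPM from library totals alone, r between Ikzf1 and Ikzf3 in CLPs was -0.74, Foxo1 with Il7r -0.23, Tcf7 with Notch1 -0.22 and Id2 with Tcf3 -0.13. With 1 library left out, r ranged from -0.95 to -0.86 for Ikzf1 with Ikzf3, from -0.0354 to 0.49 for Tcf7 with Lef1, from 0.09 to 0.77 for Foxo1 with Il7r and from -0.0939 to 0.59 for Tcf7 with Notch1. The cause was not tested.

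Counts over all genes depended more on the settings. For CLPs against GMPs they were 12184 in O-WT and 9052 in O-NR, and 4558 and 4101 with the olfactory covariate. For NR they ranged over the alternatives from 92 to 392 in HSCs (main 135), from 86 to 336 in CLPs (82), from 25 to 366 in GMPs (133) and from 20 to 199 in HSCs of both cohorts (24). In cohort 1 they reached 447 for O-NR against O-WT (16), 438 for O-NR-RC against O-NR (12) and 408 for O-NR-RC against O-WT (26). For the differences of the NR effect between cell types they reached 596 (91), 217 (33) and 468 (91) without a CPM filter. DESeq2's size factors moved the share of higher calls from 84.8% to 73% and from 25.3% to 43.6% in the GMP to HSC and CLP to GMP differences of the NR effect, and from 43.8% to 85.3% and from 53.8% to 83.1% in cohort 1 for O-NR and O-NR-RC against O-WT. Tcf7, Lef1, Id2, Ikzf3, Foxo1 and Satb1 had fewer than 100 reads in some libraries, which limits the precision there.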
